A study of Mus musculus with 13 samples.

Results

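The ErbB family was measured in the gut of mice that carried a HER2-expressing mammary tumour, as the transcripts of 3 receptors (Egfr, Erbb2, Erbb3) and 7 ligands (Egf, Tgfa, Areg, Ereg, Btc, Hbegf, Nrg1). The members were found by their mouse gene symbol among 19572 probe sets that the platform annotation names with 1 gene, out of 28846 in the deposited value table. Of the 10 members, 9 had a named probe set, each of them exactly 1. Areg, which encodes amphiregulin, had none and was not analysed here. The values are the authors' log2 expression values, so a difference of 1 stands for a 2-fold difference in array signal.

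All mice were FVB females bearing a syngeneic mammary carcinoma that expresses human HER2, so every group, the untreated one included, came from a tumour-bearing host. The treated mice had vancomycin, a glycopeptide antibiotic, in their drinking water at 200 mg/L. It was given from the age of 4 weeks and was not stopped before the mice were killed. The other mice had no antibiotic. Mice were killed at 9 weeks, with tumours of 150 mm3. The labels do not state whether the 9 weeks count from birth or from the start of treatment. RNA was taken from the colon and from the ileum, the last segment of the small intestine, and each array measured 1 RNA sample. There were 3 arrays of vancomycin colon (replicates 11, 13 and 14), 4 of no-antibiotic colon (replicates 1, 2, 3 and 5), 3 of vancomycin ileum (replicates 11, 13 and 14) and 3 of no-antibiotic ileum (replicates 1, 2 and 3). The labels do not say that the samples of a group were taken from different mice. The p-values therefore cover only the spread between these samples.

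ErbB receptors are tyrosine kinases of the cell surface that work in pairs. EGF-like ligands are made as membrane-anchored precursors, are released by proteases, and bring 2 receptors together, which starts signalling through the MAPK and PI3K routes. Egfr binds Egf, Tgfa, Areg, Ereg, Btc and Hbegf, Erbb2 has no known ligand and serves as the preferred partner, and Erbb3 binds neuregulins such as Nrg1 and has little kinase activity of its own. In the intestine this system is known for driving the growth of crypt cells and the repair of the epithelium.

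The tissue labels were checked first. Of 7 colon markers measured, 5 were higher in colon than in ileum in both antibiotic states, among them Car1, a carbonic anhydrase of colon epithelium, by 9.79 under vancomycin and by 9.46 without antibiotic on the log2 scale. Of 8 ileum markers, 7 were lower in colon in both states, among them Fabp6, the ileal bile acid binding protein, with log2 changes of -6.96 and -6.72. Hoxd13, Mettl7b and Lct were the exceptions. The median log2 value of an array over all its probe sets lay between 7.98 and 8.14. One array stood apart: vancomycin ileum replicate 11 correlated with its own group at a mean r of 0.977, while replicates 13 and 14 of that group did so at 0.987 and 0.983 and the no-antibiotic ilea at 0.994 to 0.995. Its smooth muscle markers averaged 13.92 on the log2 scale, against 12.99 and 12.62 in the other vancomycin ilea, its B cell markers 10.25, against 7.78 and 7.36, and its epithelial markers 14.35, against 14.83 and 14.84. It also held milk protein transcripts: Csn3 was at 14.39, Csn2 at 9.08 and Lalba at 7.71. In the other 12 arrays Csn2 was at most 6.80 and Lalba at most 6.18, while Csn3 was at 13.53 in vancomycin colon replicate 14, 10.28 in no-antibiotic colon replicate 5, 9.85 in vancomycin ileum replicate 14 and at most 8.31 elsewhere. The mean of 10 mammary markers was 7.48 in vancomycin ileum replicate 11 and 7.15 in vancomycin colon replicate 14. It was 6.27 and 6.67 in vancomycin ileum replicates 13 and 14, and 6.25 and 6.51 in vancomycin colon replicates 11 and 13. The no-antibiotic arrays of both tissues were at 6.22 to 6.40. In vancomycin ileum replicate 11 the remaining mammary markers lay inside the range of the other 12 arrays. Krt5 was at 5.17, Krt14 at 6.19, Krt15 at 7.65, Wap at 6.91, Esr1 at 4.97, Pgr at 6.27 and Elf5 at 6.42. The part of mammary tissue in the results was not tested. Values without vancomycin ileum replicate 11 and, for some results, without vancomycin colon replicate 14 are given beside the results.

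Across the 9 measured members, tissue was the comparison that gave calls. Hbegf and Ereg were lower in colon than in ileum in both antibiotic states, and Btc was higher in colon in mice without antibiotic. No member passed the test for vancomycin in either tissue. In whole tissue, fewer cells of a type that express a gene and less of its RNA per cell cannot be told apart.

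**Figure D1:**
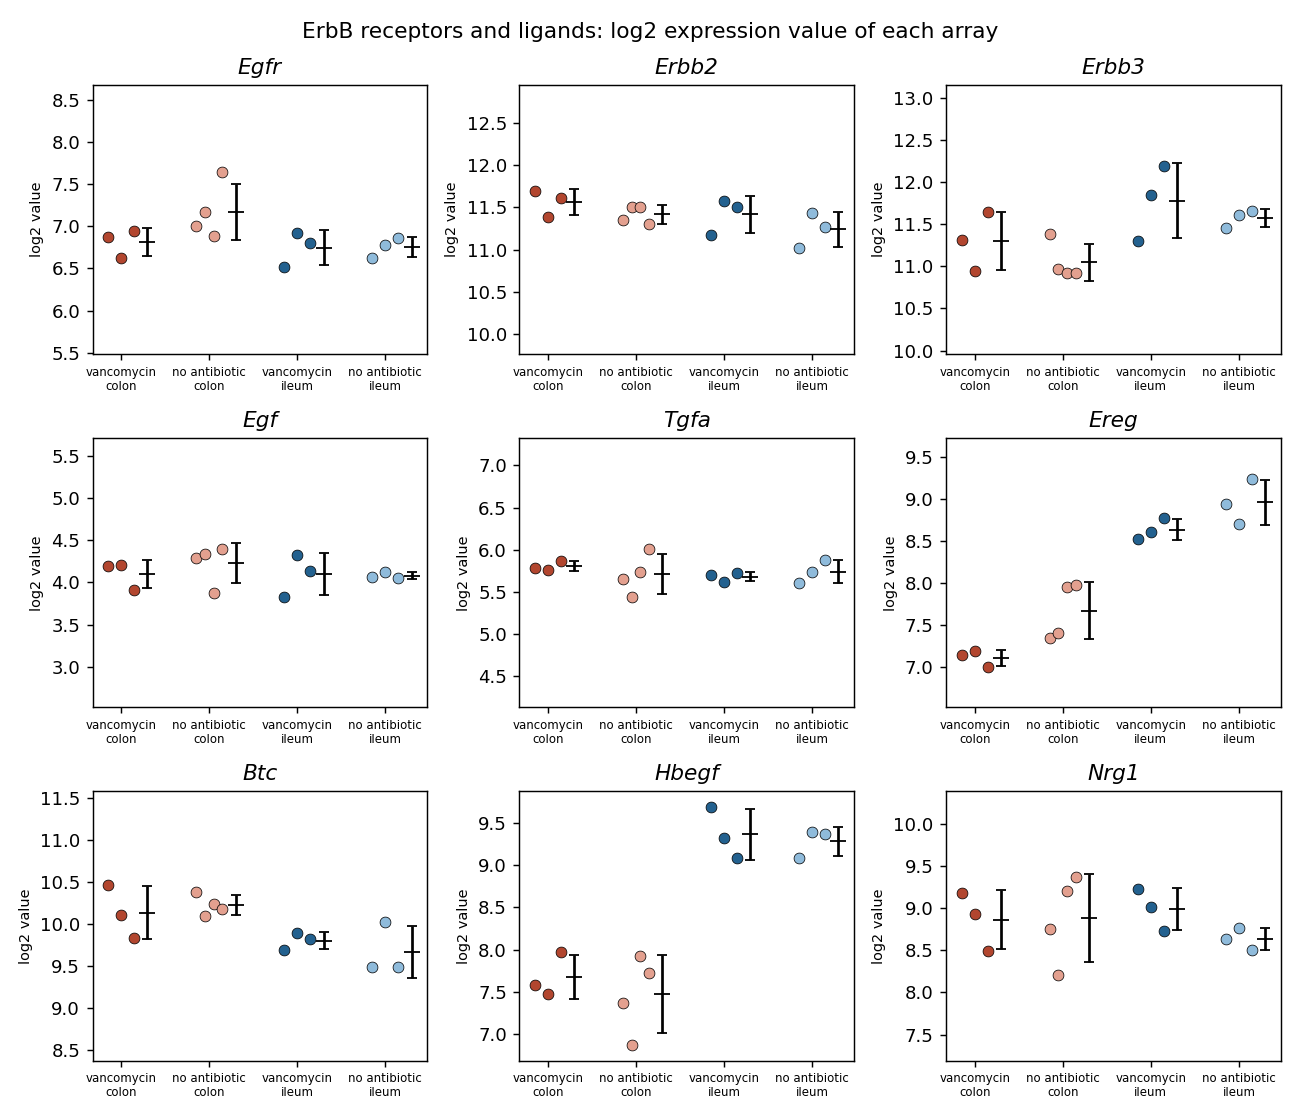
Log2 expression of the 9 measured ErbB receptors and ligands, 1 panel per gene, with 1 point per array and the mean and SD of each of the 4 groups (vancomycin colon, no-antibiotic colon, vancomycin ileum, no-antibiotic ileum). For Ereg and Hbegf every one of the 6 ileum arrays lies above every one of the 7 colon arrays, while the groups of the other genes lie closer together.

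Egfr, the receptor for most of the ligands described here, had log2 values of 6.87, 6.63 and 6.95 in vancomycin colon and 7.01, 7.17, 6.88 and 7.64 in no-antibiotic colon. In ileum it had 6.52, 6.92 and 6.80 under vancomycin and 6.62, 6.78 and 6.86 without antibiotic. The highest array was no-antibiotic colon replicate 5, and the ileum groups overlapped entirely. In colon the vancomycin group averaged 6.82 ± 0.17 (SD, n = 3) and the no-antibiotic group 7.18 ± 0.33 (SD, n = 4). That log2 change of -0.36 had a 95% interval of -0.74 to 0.02 and did not pass (limma, adjusted p = 0.341). Without antibiotic, the 4 colon arrays all lay above the 3 ileum arrays, with a log2 difference of 0.42 (SE 0.18, limma adjusted p = 0.121), which did not pass either.

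Erbb2, the mouse counterpart of the HER2 gene, was among the steadier members. It had 11.69, 11.39 and 11.61 in vancomycin colon, against 11.35, 11.51, 11.51 and 11.30 in no-antibiotic colon. In ileum the values were 11.17, 11.58 and 11.50 under vancomycin and 11.02, 11.43 and 11.27 without antibiotic. The groups overlapped in every comparison. The largest of its 4 tissue and vancomycin differences was 0.18 on the log2 scale, and the smallest adjusted p among them was 0.482 (limma, colon minus ileum without antibiotic). The probe set is annotated to the mouse gene, and whether it also reads the human HER2 of the tumour was not tested. Vancomycin ileum replicate 11, the array with the most Csn3, had the lowest Erbb2 of its group, at 11.17. Vancomycin colon replicate 14, next in Csn3, was at 11.61, between the 11.39 and 11.69 of its group. The part of mammary tissue in these values was not tested.

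Erbb3, the receptor that pairs with Erbb2 when a neuregulin binds, had 11.31, 10.95 and 11.64 in vancomycin colon and 11.38, 10.97, 10.92 and 10.92 in no-antibiotic colon. It had 11.30, 11.85 and 12.19 in vancomycin ileum and 11.45, 11.61 and 11.66 in no-antibiotic ileum. Colon lay below ileum without antibiotic in all arrays, with a log2 difference of -0.53 (SE 0.21, 95% interval -0.98 to -0.07), which did not pass across all named probe sets (limma, adjusted p = 0.104). Under vancomycin the groups overlapped, the difference was -0.48 (SE 0.23) and the adjusted p was 0.194. The overlap came from vancomycin ileum replicate 11, the array that stood apart, which held the lowest Erbb3 of its group. Without that array the difference under vancomycin was -0.72, and it passed (limma, adjusted p = 0.0268). With each array left out in turn, the difference ran from -0.72 to -0.275 and the limma adjusted p from 0.0268 to 0.536. It passed in 2 of 15 alternative settings.

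Egf, the founding ligand of the family, gave values near the bottom of the array's range, with only 0.741% of named probe sets averaging lower. It had 4.19, 4.21 and 3.91 in vancomycin colon, against 4.29, 4.34, 3.88 and 4.40 in no-antibiotic colon, and 3.83, 4.33 and 4.14 in vancomycin ileum, against 4.06, 4.13 and 4.05 in no-antibiotic ileum. All groups overlapped, and no detection calls were used here, so a difference in Egf could go unseen at this signal. Tgfa, an Egfr ligand made by epithelial cells, was also dim, with 16.3% of named probe sets averaging lower. It had 5.78, 5.76 and 5.87 in vancomycin colon, against 5.65, 5.44, 5.73 and 6.01 in no-antibiotic colon, and 5.70, 5.62 and 5.72 in vancomycin ileum, against 5.60, 5.74 and 5.88 in no-antibiotic ileum. Its colon arrays under vancomycin all lay above the vancomycin ilea, yet by only 0.12 on the log2 scale (SE 0.15, limma adjusted p = 0.668).

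Hbegf, the heparin-binding ligand that is induced in injured epithelium, gave the widest tissue gap of the 9 members. It had 7.58, 7.47 and 7.97 in vancomycin colon, against 9.69, 9.32 and 9.09 in vancomycin ileum. Without antibiotic it had 7.37, 6.87, 7.92 and 7.72 in colon, against 9.09, 9.40 and 9.37 in ileum. The highest colon array, at 7.97, lay below the lowest ileum array, at 9.09. Under vancomycin the log2 difference was -1.69 (SE 0.25, 95% interval -2.23 to -1.16), which is 3.23-fold lower in colon (limma, adjusted p = 0.000258). Without antibiotic it was -1.82 (SE 0.23, 95% interval -2.31 to -1.32), or 3.52-fold lower (limma, adjusted p = 5.52e-05).

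Ereg, epiregulin, a ligand of Egfr and Erbb4, followed the same order of tissues. It had 7.15, 7.19 and 7.01 in vancomycin colon, against 8.53, 8.61 and 8.77 in vancomycin ileum. In mice without antibiotic it had 7.35, 7.41, 7.96 and 7.98 in colon, against 8.94, 8.71 and 9.24 in ileum. No colon array reached the lowest ileum array. The log2 difference was -1.52 under vancomycin (SE 0.20, 95% interval -1.94 to -1.10, limma adjusted p = 8.54e-05), a 2.87-fold lower signal in colon. Without antibiotic it was -1.29 (SE 0.18, 95% interval -1.68 to -0.90, limma adjusted p = 0.000145), a 2.44-fold lower signal. The Ereg and Hbegf differences passed with any 1 array left out.

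Btc, betacellulin, which binds Egfr and Erbb4, had 10.46, 10.11 and 9.83 in vancomycin colon, against 9.69, 9.89 and 9.82 in vancomycin ileum. Without antibiotic it had 10.38, 10.09, 10.24 and 10.18 in colon, against 9.49, 10.02 and 9.49 in ileum, with no overlap. That difference of 0.56 on the log2 scale (SE 0.17, 95% interval 0.19 to 0.93) was a 1.47-fold higher signal in colon and passed (limma, adjusted p = 0.0340). The call was lost on leaving out no-antibiotic colon replicate 1, 3 or 5 or no-antibiotic ileum replicate 1 or 3, with adjusted p between 0.0569 and 0.152. Under vancomycin the groups overlapped, and the difference of 0.33 (SE 0.18) did not pass (limma, adjusted p = 0.277).

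The promoter of Btc is printed because Btc was called in the opposite direction to its chromosome neighbour Ereg. In the RefSeq annotation, Epgn, Ereg, Areg and Btc follow one another on mouse chromosome 5, all 4 of them ligand genes of the family. The window, from RefSeq on GRCm38.p6, runs from 250 bases before to 50 bases after the gene's start at chr5:91402945-91403244 on the minus strand, 5′ to 3′. Capitals mark GGGTGTG, the reverse complement of CACACCC, a box of the kind bound by Krüppel-like factors.
Btc promoter: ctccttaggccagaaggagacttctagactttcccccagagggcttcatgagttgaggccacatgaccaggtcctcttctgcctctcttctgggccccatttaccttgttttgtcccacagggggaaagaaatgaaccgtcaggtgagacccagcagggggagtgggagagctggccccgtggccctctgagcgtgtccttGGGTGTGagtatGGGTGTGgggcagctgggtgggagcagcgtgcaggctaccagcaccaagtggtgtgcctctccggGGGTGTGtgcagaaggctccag
CACACCC was searched on both strands and stood 3 times in this window, without overlap. It occurred at least once in 7.95% of 32851 RefSeq windows of the same length, and at least 3 times in 31 of them. A search of both strands for TATAAA, the TATA box, found none in this window, while 13.6% of all windows held it. Nor did the window hold GGGCGG, the GC box found in 35.7% of windows. It also lacked TGANTCA, the AP-1 site found in 7.81%, and TTTATG, a CDX-type site found in 11.9%. The motifs were chosen after the letters of this window had been seen, and a match is a description of letters only.

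Nrg1, neuregulin 1, the ligand of Erbb3 and Erbb4 that is made largely by cells outside the epithelium, had 9.18, 8.93 and 8.49 in vancomycin colon and 8.75, 8.21, 9.21 and 9.37 in no-antibiotic colon. In ileum it had 9.23, 9.02 and 8.73 under vancomycin and 8.64, 8.76 and 8.50 without antibiotic. All groups overlapped. Its tissue difference was -0.13 on the log2 scale under vancomycin (SE 0.27, limma adjusted p = 0.822) and 0.25 without antibiotic (SE 0.25, limma adjusted p = 0.571). Of the 9 members in the 4 groups, Nrg1 had the widest spread between arrays, with an SD of 0.52 in no-antibiotic colon.

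**Figure D2:**
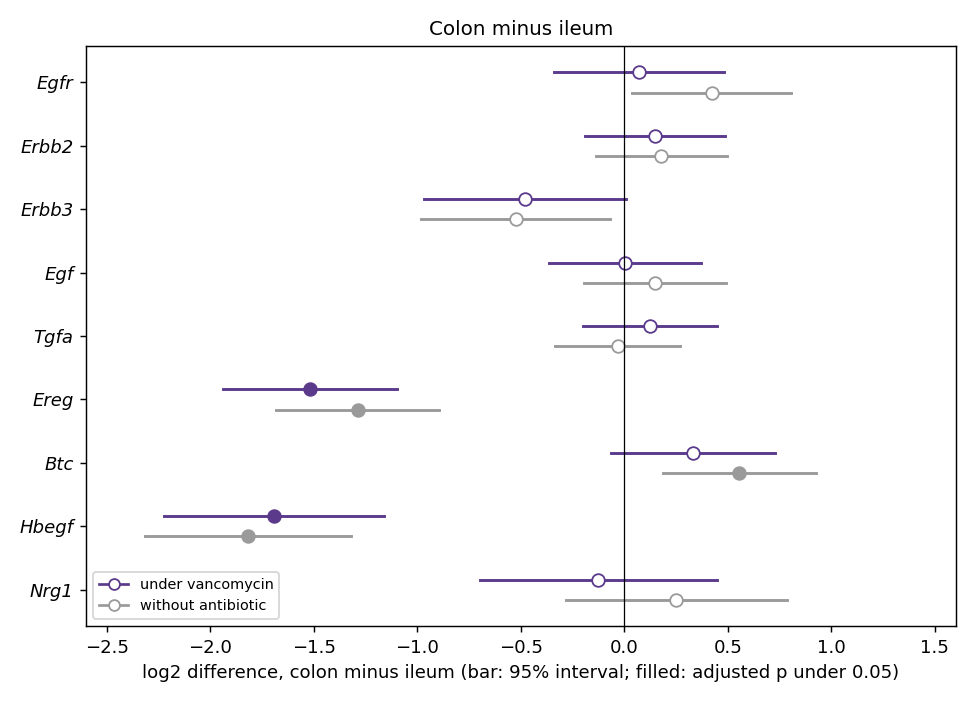
Log2 difference of colon minus ileum for the 9 members under vancomycin and without antibiotic, with 95% intervals from limma. Hbegf and Ereg lie well below 0 in both states, and Btc lies above 0 without antibiotic (filled points, adjusted p under 0.05). The intervals of Egfr and Erbb3 without antibiotic lie off 0 but did not pass the adjusted test.

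Under vancomycin, 2 of 9 members passed, both lower in colon, where 15.1% of all named probe sets passed, 7.45% higher and 7.67% lower. Without antibiotic, 3 of 9 passed, 1 higher and 2 lower, where 20.5% of all named probe sets passed, 11% higher and 9.59% lower. An unadjusted p under 0.05 was held by 2 of 9 members under vancomycin, against 26.7% of all named probe sets, and by 5 of 9 without antibiotic, against 30.5%. With 9 members, 2 and 3 calls lie near these shares. The median size of the log2 difference was 0.15 over the members and 0.23 over all named probe sets under vancomycin, and 0.42 and 0.23 without antibiotic. Groups did not overlap for 3 of 9 members under vancomycin and for 5 of 9 without antibiotic, against 27.4% and 32.2% of all named probe sets. The 2 tissue comparisons use different arrays. Leaving out vancomycin ileum replicate 11 gave 3 calls under vancomycin, with Erbb3 as the added one, and put Hbegf at -1.53, Ereg at -1.57 and Btc at 0.28. Leaving out vancomycin colon replicate 14 gave 2 calls, with Hbegf at -1.84, Ereg at -1.47 and Erbb3 at -0.65 (limma adjusted p = 0.113).

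Cell type markers also differed between the tissues. Of 11 Paneth cell markers, 8 were lower and 1 was higher in colon under vancomycin, and 7 were lower and 2 higher without antibiotic. The mean of that list ran from 9.31 to 9.52 in vancomycin colon and from 12.03 to 13.26 in vancomycin ileum, and from 9.43 to 9.78 in no-antibiotic colon and from 11.99 to 12.73 in no-antibiotic ileum. Of 7 mesenteric fat markers, 6 were lower in colon in both states. Of 8 T and innate lymphoid cell markers, 3 were lower in colon under vancomycin and 5 without antibiotic. Of 10 smooth muscle markers, 1 was higher in colon under vancomycin and 7 without antibiotic. Of 12 epithelial markers, 2 were higher and 2 lower under vancomycin, and 1 was higher and 4 lower without antibiotic. The part of these cell types in the Hbegf, Ereg and Btc differences was not tested.

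Vancomycin was compared with no antibiotic within each tissue, which asks whether the antibiotic changed the family's transcripts in the gut. In ileum, 0 of 9 members passed by limma at an adjusted p under 0.05, and 0 had an unadjusted p under 0.05, where 0.536% of all named probe sets passed and 10.1% had an unadjusted p under 0.05. The median log2 change was 0.08 over the members and 0.02 over all named probe sets. The members' changes ran from -0.33 for Ereg (SE 0.20, adjusted p = 0.596) to 0.36 for Nrg1 (SE 0.27, adjusted p = 0.673). The ileum groups overlapped for all 9 members, while they did not for 16.9% of all named probe sets. The 95% interval was narrowest for Tgfa, from -0.38 to 0.26, and widest for Nrg1, from -0.21 to 0.93. Without vancomycin ileum replicate 11, still 0 of 9 passed. The changes were then 0.11 for Egfr, 0.30 for Erbb2, 0.45 for Erbb3, 0.155 for Egf and -0.07 for Tgfa, and -0.27 for Ereg, 0.19 for Btc, -0.082 for Hbegf and 0.24 for Nrg1. Among the cell markers, 1 of 8 T and innate lymphoid cell markers and 1 of 12 epithelial markers were lower in vancomycin ileum. The T and innate lymphoid list averaged 8.19 to 8.94 in vancomycin ileum and 8.96 to 9.44 in no-antibiotic ileum, and the smooth muscle list 12.62 to 13.92 and 12.40 to 12.59. Their part in the ileum values was not tested.

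In colon, 0 of 9 members passed by limma, and 1 had an unadjusted p under 0.05, where 0.0102% of all named probe sets passed and 15.9% had an unadjusted p under 0.05. That member was Ereg, at 7.12 ± 0.09 in vancomycin colon (SD, n = 3) and 7.68 ± 0.34 in no-antibiotic colon (SD, n = 4). All 3 vancomycin colons lay below all 4 no-antibiotic colons, which was the case for 1 of 9 members and for 12.3% of all named probe sets in one direction or the other. The log2 change was -0.56 (SE 0.18, 95% interval -0.95 to -0.17), with an adjusted p of 0.187 by limma, so it did not pass. The median change was -0.02 over the members and 0.02 over all named probe sets. Egfr followed at -0.36, and the other 7 members had log2 differences of -0.12 to 0.25. Without vancomycin colon replicate 14 the Ereg difference was -0.505 (limma adjusted p = 0.526), and 0 of 9 passed. Goblet cell markers had differences of the same sign as Ereg: 0 of 10 passed by limma, all 10 had an unadjusted p under 0.05, and their median log2 change was -0.99. That list averaged 13.72 to 14.95 in vancomycin colon and 15.16 to 15.65 in no-antibiotic colon. The epithelial list averaged 14.15 to 14.335 in vancomycin colon and 14.37 to 14.57 in no-antibiotic colon. Enteroendocrine (median -0.27), macrophage and dendritic cell (-0.28) and stem and cycling cell (-0.23) markers were also among the lists below 0. Medians above 0 were those of smooth muscle, B cell, T and innate lymphoid cell, exocrine pancreas, mesenteric fat, mammary and colon markers. The part of these cells in the Ereg value was not tested.

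The difference of the vancomycin change between colon and ileum was tested as an interaction. Of 9 members, 0 passed by limma and 0 had an unadjusted p under 0.05, where 0.189% of all named probe sets passed and 8.01% had an unadjusted p under 0.05. The largest interaction was that of Nrg1, at -0.38 (SE 0.37, adjusted p = 0.853), followed by Egfr at -0.35 (SE 0.26, adjusted p = 0.789). For Ereg, which was lower under vancomycin in both tissues without passing, the interaction was -0.23 (SE 0.27, adjusted p = 0.883). With vancomycin ileum replicate 11 left out, 0 of 9 passed, and the interactions were -0.26 for Nrg1, -0.465 for Egfr and -0.285 for Ereg.

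**Figure D3:**
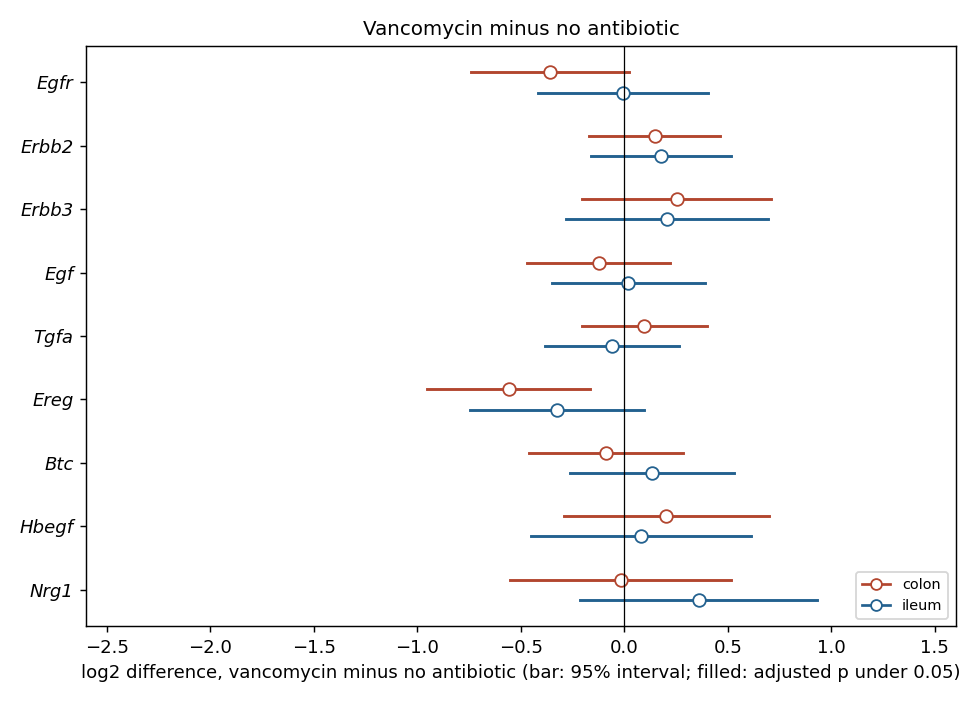
Log2 difference of vancomycin minus no antibiotic for the 9 members in colon and in ileum, with 95% intervals from limma. Most intervals span 0, and the Ereg interval in colon, from -0.95 to -0.17, lies below 0 but did not pass the adjusted test.

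Of the 5 other genes of the family, 2 passed between the tissues under vancomycin and 1 without antibiotic. Over all named probe sets 15.1% and 20.5% passed. With 5 genes, 1 call without antibiotic lies near the 20.5%. The genes were Nrg4 in both states and Epgn under vancomycin. Nrg4, a neuregulin that binds Erbb4, had 6.13, 6.03 and 6.23 in vancomycin colon, against 6.70, 7.21 and 7.31 in vancomycin ileum. It was lower in colon under vancomycin by a log2 difference of -0.94 (SE 0.16, limma adjusted p = 0.00106) and without antibiotic by -0.51 (SE 0.15, limma adjusted p = 0.0287). The second of these calls was lost on leaving out no-antibiotic colon replicate 1 or 2 or no-antibiotic ileum replicate 2 or 3, with adjusted p between 0.0555 and 0.137. Epgn, epigen, an Egfr ligand, had 6.71, 7.02 and 7.47 in vancomycin colon, against 6.26, 6.15 and 6.63 in vancomycin ileum, a log2 difference of 0.72 (SE 0.19, limma adjusted p = 0.0207). That call was lost without vancomycin colon replicate 14 (adjusted p = 0.0980) or vancomycin ileum replicate 13 (adjusted p = 0.0935), and with only the groups compared in the fit (adjusted p = 0.110). Without vancomycin ileum replicate 11, Nrg4 was at -1.13 and Epgn at 0.68, and both passed. Without antibiotic the Epgn difference was 0.33 (SE 0.18, limma adjusted p = 0.240). Erbb4, the fourth receptor, differed between tissues by -0.22 under vancomycin and by 0.21 without antibiotic, Nrg2 by 0.15 and 0.14, and Nrg3 by -0.28 and -0.21, and none of these passed. In the vancomycin and interaction tests 0 of 5 passed by limma. Over all named probe sets 0.536% passed in ileum, 0.0102% in colon and 0.189% for the interaction. An unadjusted p under 0.05 was held by 2 of 5 in ileum, against 10.1% of all named probe sets. In colon and for the interaction it was held by 0 of 5, against 15.9% and 8.01%. The widest changes were 0.44 for Nrg4 and for Erbb4 in ileum (limma adjusted p = 0.364 and 0.466). Without vancomycin ileum replicate 11 these were 0.63 for Nrg4 (limma adjusted p = 0.0766) and 0.495 for Erbb4 (limma adjusted p = 0.440).

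The pathway around the receptors was read from 4 lists. The median log2 difference of colon minus ileum was 0.16 for ligand shedding, 0.11 for receptor restraint, 0.03 for adaptors and kinases and 0.06 for immediate early genes under vancomycin, against 0.04 over all named probe sets. Without antibiotic it was 0.47, 0.14, -0.10 and 0.06, against 0.04. Of 10 genes of ligand shedding, 2 were higher and 0 lower in colon under vancomycin, and 4 were higher and 1 lower without antibiotic, where 15.1% and 20.5% of all named probe sets passed. Rhbdl2, a rhomboid protease of the cell surface, averaged 11.05 in vancomycin colon and 6.70 in vancomycin ileum, a log2 difference of 4.36 (SE 0.36), and without antibiotic it differed by 3.29 (SE 0.33). Cd9, a tetraspanin that associates with membrane-anchored Hbegf, was higher in colon by 1.18 (SE 0.17) under vancomycin and by 1.93 (SE 0.16) without antibiotic. Adam9, a membrane protease, was higher without antibiotic by 1.03 (SE 0.17). Adam10, a main sheddase of Egf and Btc, was lower without antibiotic by a log2 difference of -0.52 (SE 0.16, limma adjusted p = 0.0379), a call that held on leaving out only 1 of the 7 arrays.

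Of 19 measured genes that restrain the receptors, 5 were higher and 1 lower in colon under vancomycin, and 6 were higher and 2 lower without antibiotic, beside 15.1% and 20.5% of all named probe sets. Lrig1, a brake on ErbB receptors that marks crypt stem cells, was higher by 1.82 (SE 0.30) under vancomycin and by 1.57 (SE 0.28) without antibiotic. Cblb, a ubiquitin ligase, was higher by 1.06 (SE 0.20) and 0.89 (SE 0.19). Lrig3 was higher by 0.78 (SE 0.18) under vancomycin. Spry2, an inhibitor of receptor tyrosine kinase signalling, was higher by 1.24 (SE 0.21) without antibiotic. Under vancomycin Spry2 was higher by 0.93 (SE 0.23, limma adjusted p = 0.0123), and 4 of the 6 arrays, all but vancomycin colon replicate 14 and vancomycin ileum replicate 11, took the adjusted p to between 0.0506 and 0.0526 when left out. Dusp6, a phosphatase of ERK, was lower without antibiotic by a log2 difference of -1.19 (SE 0.22).

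Of 29 measured adaptors and kinases, 3 were higher and 5 lower in colon under vancomycin, and 3 were higher and 6 lower without antibiotic, beside the same 15.1% and 20.5%. Map2k1, the MAPK kinase MEK1, was higher by 1.01 (SE 0.15) under vancomycin and by 0.82 (SE 0.14) without antibiotic. Gab2, a docking protein, was lower in both, with log2 differences of -1.21 (SE 0.23) and -0.96 (SE 0.21). Under vancomycin, Pik3cb, a catalytic subunit of PI3K, was lower (-1.10, SE 0.24). Pdk1, which under this symbol encodes a mitochondrial pyruvate dehydrogenase kinase and not a kinase of the PI3K route, was higher (0.87, SE 0.17). The counts and median of this list include it. Without antibiotic, Jak2 (-1.28, SE 0.23) and Stat3 (-0.91, SE 0.19), which pass cytokine signals to the nucleus, were lower.

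Of 19 measured immediate early and MAPK target genes, 1 was higher and 0 lower in colon under vancomycin, and 2 were higher and 1 lower without antibiotic. Over all named probe sets 15.1% and 20.5% passed. With 19 genes, 3 calls without antibiotic lie near the 20.5%. Across the alternatives the list's counts ran from 1 to 4 under vancomycin and from 3 to 4 without antibiotic. With the replicate number as a block, 3 passed under vancomycin. Etv4, an ETS transcription factor, was higher by 1.32 (SE 0.23) under vancomycin and by 2.04 (SE 0.22) without antibiotic. Etv5, its close relative, was higher by 3.09 (SE 0.49) without antibiotic, and Atf3, a stress-induced factor, was lower (-1.41, SE 0.26). Leaving out vancomycin ileum replicate 11 left the shedding list at 2 calls under vancomycin and gave 8 for restraint, 10 for adaptors and kinases and 3 for the immediate early list. Leaving out vancomycin colon replicate 14 gave 2, 5, 5 and 1. Without vancomycin ileum replicate 11 the named genes kept their calls under vancomycin, with Rhbdl2 at 3.97, Cd9 at 1.26, Lrig1 at 2.12, Cblb at 1.32, Lrig3 at 0.835 and Spry2 at 1.06. Map2k1 was then at 0.92, Gab2 at -1.51, Pik3cb at -1.21, Pdk1 at 0.74 and Etv4 at 1.17.

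For vancomycin and for the interaction, 0 genes of any of the 4 lists passed by limma. An unadjusted p under 0.05 was held in ileum by 2 of 10 shedding genes, 1 of 19 restraint genes, 2 of 29 adaptors and kinases and 6 of 19 immediate early genes. In colon the counts were 1, 3, 3 and 4, and for the interaction 4, 1, 0 and 2, in the same order of lists. Over all named probe sets the shares were 10.1% in ileum, 15.9% in colon and 8.01% for the interaction. The genes with the smallest p of each list included, in ileum, Dusp6, at -0.88 (SE 0.24, limma adjusted p = 0.170), Phlda1, at -0.79 (SE 0.22, limma adjusted p = 0.180), Dusp1, an inducible MAPK phosphatase, at 1.98 (SE 0.56, limma adjusted p = 0.182), and Cd9, at 0.59 (SE 0.17, limma adjusted p = 0.198). Stat3 was at -0.54 there (SE 0.20, limma adjusted p = 0.379). Without vancomycin ileum replicate 11 these changes were -0.81 for Dusp6, -0.81 for Phlda1, 1.457 for Dusp1, 0.50 for Cd9 and -0.61 for Stat3, none of them past the threshold. In colon they included Phlda1, at -0.65 (SE 0.21, limma adjusted p = 0.181), Myc, at -0.93 (SE 0.33, limma adjusted p = 0.205), Dusp6, at -0.62 (SE 0.22, limma adjusted p = 0.219), and Errfi1, an inhibitor of Egfr, which averaged 12.37 in vancomycin colon and 13.37 in no-antibiotic colon (limma adjusted p = 0.231). Rhbdl2 was at 0.90 (SE 0.34, limma adjusted p = 0.227) and Stat5a at 0.41 (SE 0.15, limma adjusted p = 0.227). For the interaction they included Cd9, at -0.75 (SE 0.23, limma adjusted p = 0.352), and Etv5, at -1.80 (SE 0.71, limma adjusted p = 0.516).

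**Figure D4:**
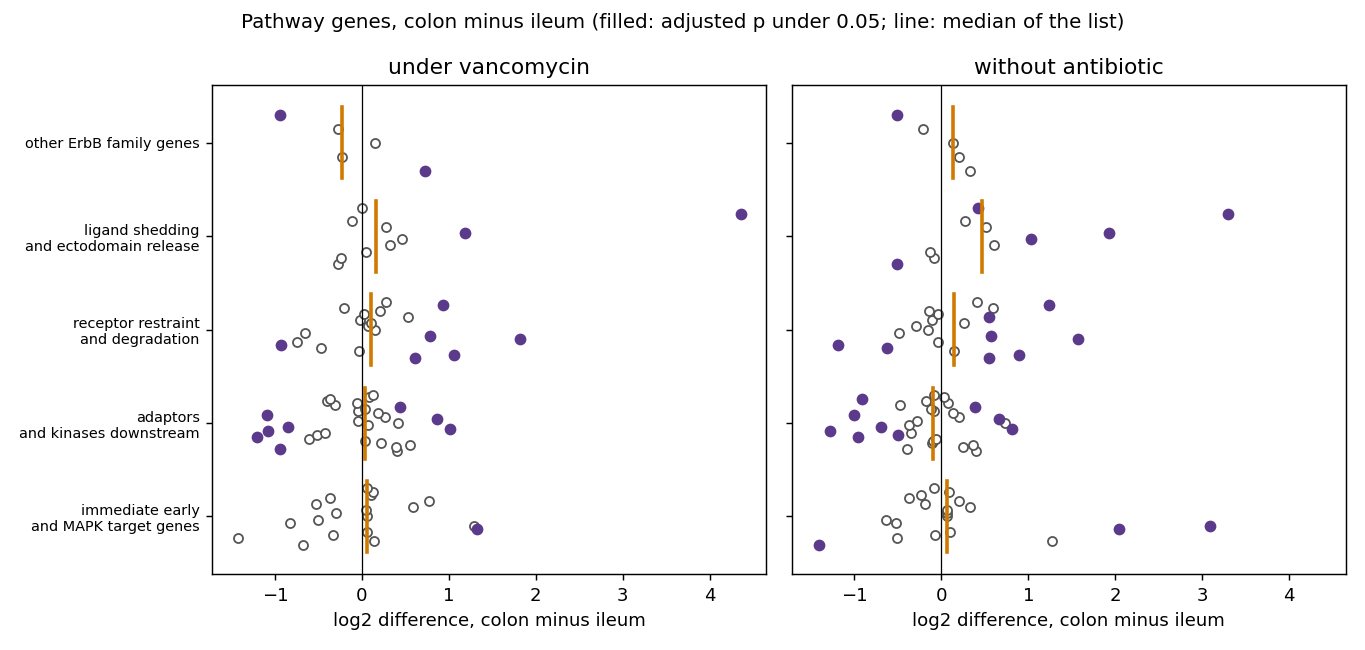
Log2 difference of colon minus ileum for every measured gene of the 4 pathway lists and the other family genes, under vancomycin on the left and without antibiotic on the right, with 1 point per gene, filled where the adjusted p was under 0.05, and a line at each list's median. The farthest point to the right in the shedding row is Rhbdl2, at 4.36 under vancomycin and 3.29 without antibiotic. Every list, the shedding list included, holds points on both sides of 0.

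The genes most like each member were taken by Pearson's r over the 13 arrays, as a description that shares the arrays' tissue difference. Hbegf ran closest to Defa41 (r = 0.976), a Paneth cell defensin, and Lyz1 (r = 0.970), Paneth cell lysozyme. Ereg ran closest to Atp6v1b2 (r = 0.969) and Syvn1 (r = 0.969), Erbb3 to Pacsin2 (r = 0.951) and Mertk (r = 0.920), and Btc to Tmem42 (r = 0.925) and Vmac (r = 0.910). Nrg1 ran closest to Klhl11 (r = 0.915), Egf to Mpv17l (r = 0.895), Egfr to Slc16a13 (r = 0.871), Tgfa to Olfr1218 (r = 0.832) and Erbb2 to Rp9 (r = 0.820). Likeness over deviations from the 4 group means leaves out the tissue difference. By that measure Hbegf ran closest to Uck1 (r = 0.937) and Phf11c (r = 0.899), Ereg to Gpn2 (r = 0.919) and Btc to Pramel25 (r = 0.888). Among the members' deviations from their group means, the pairs ran from r = -0.63 for Egf and Hbegf to r = 0.68 for Tgfa and Hbegf over the same 13 arrays.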

How the data were processed

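The deposited log2 values hold 1 number for each probe set on each array. The submitters' processing notes name RMA, a method of background correction, quantile scaling and probe summary, and the vendor's Expression Console 1.4.1.46, without the role of either. Biotin-labelled RNA was hybridised to 1-colour mouse arrays. The authors' values lay between 3.01 and 18.25 on the log2 scale, were used as deposited, and carry no detection calls. Genes were named from the platform annotation, and all 19572 Entrez identifiers matched the RefSeq GRCm38.p6 table. Where a gene had several probe sets, the one with the highest mean was used.

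A model of the 4 group means over all 13 arrays was fitted with limma 3.58.1 (R 4.3.3), with lmFit and eBayes, with Benjamini-Hochberg adjustment across every named probe set and a threshold of 0.05. The code was tested on simulated data. Replicate numbers shared by colon and ileum were not used as a block. Same-numbered arrays deviated together over 0.1 in all 3 vancomycin pairs (r from 0.107 to 0.236) and in 0 of 3 pairs without antibiotic. A vancomycin pair with different numbers, colon replicate 13 and ileum replicate 14, was at 0.149. The numbers may pair samples in either state, and these values cannot settle it. The labels do not say what a number marks. Every member is described. From each pathway list the text takes up to 4 genes with the smallest p among those that passed in a comparison. Where none passed, it names only some of the genes with the smallest unadjusted p. The members and all gene lists were chosen with earlier results of these data known. Likeness used genes with an SD of at least 0.3. The number of arrays limits the precision. Alternatives tried were fewer groups, array weights, other scalings, a filter on dim probe sets, each array left out, and the replicate number as a block.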

Additional observations from a re-analysis of the deposited data

Results flagged for a closer look

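Erbb3 in no-antibiotic colon held an array far from the others. Replicate 1 was at 11.38 on the log2 scale, against 10.97, 10.92 and 10.92 in replicates 2, 3 and 5, and its gap was 0.891 of the group's range, above Dixon's 95% critical value for 4 arrays. With 9 members tested in this group, a flag of this kind can arise by chance. Without that array, the colon minus ileum difference of Erbb3 in mice without antibiotic was -0.64 (limma adjusted p = 0.0655), against -0.53 with it, and the vancomycin minus no antibiotic difference in colon was 0.36 (limma adjusted p = 0.543), against 0.25 with it. Neither passed with or without it.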

How the results depend on the processing

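Of 701 values of the 9 members under the alternatives, 649 kept their direction and their side of the threshold, 8 lost and 4 gained the threshold, and 40 changed sign. The count of members called stayed at 0 for vancomycin in ileum, for vancomycin in colon and for the interaction under every alternative run. Ereg and Hbegf passed in every setting run in both tissue comparisons, Ereg between -1.61 and -1.45 under vancomycin and between -1.42 and -1.15 without antibiotic, Hbegf between -1.84 and -1.53 and between -1.97 and -1.62. Btc without antibiotic passed in 8 of 16 settings, between 0.47 and 0.73, and did not with arrays centred on their medians (0.50, limma adjusted p = 0.0662) or with cyclic loess (0.49, limma adjusted p = 0.0557). Erbb3 without antibiotic passed with array weights (limma adjusted p = 0.0372) and with only the groups compared (limma adjusted p = 0.0275), and under vancomycin with array weights (-0.60, limma adjusted p = 0.0269). For vancomycin in ileum, array weights called 1 gene of the other family (Nrg4), 1 of shedding (Cd9), 1 of restraint (Dusp6), 1 adaptor or kinase and 3 immediate early genes (Phlda1 among them).

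The counts over all named probe sets moved more. In the vancomycin ileum comparison limma called 105, against 20 with only the groups compared and 1012 with array weights. In vancomycin colon it called 2, against 0 with only the groups compared or with centred arrays, 38 with array weights, 4 with cyclic loess (1 higher and 3 lower, against 0 higher and 2 lower) and 1 without the dimmest rows. The interaction gave 37, against 191 with array weights, and colon minus ileum under vancomycin 2961, against 1875 with only the groups compared and 4903 with array weights. Leaving out 1 array gave 40 to 172 (172 without vancomycin ileum replicate 11), 0 to 217 (217 without no-antibiotic colon replicate 3), 12 to 84, 2192 to 3948 under vancomycin and 2910 to 3847 without antibiotic. The cause was not tested.

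Sign changes touched small, uncalled changes. With array weights Egfr in ileum was at 0.12, Nrg1 in colon at 0.13, the Erbb3 and Nrg2 interactions at -0.10 and -0.035, and colon minus ileum under vancomycin at -0.082 for Egfr and -0.16 for Egf. With centred arrays Egf in ileum was at -0.0033, Nrg1 in colon at 0.0067 and the Erbb2 interaction at 0.0175. With cyclic loess Egf in ileum was at -0.039, Tgfa in colon at -0.00072, Nrg1 at 0.015, Erbb4 at -0.086 and Nrg4 at -0.076, and under vancomycin colon minus ileum was -8.18e-05 for Egfr and -0.011 for Egf. With 1 array left out, the vancomycin change in colon ran from -0.24 to 0.17 for Nrg1, -0.25 to 0.0625 for Btc, -0.10 to 0.10 for Erbb4 and -0.04 to 0.06 for Nrg4. That in ileum ran from -0.093 to 0.11 for Egfr, -0.10 to 0.16 for Egf, -0.13 to 0.01 for Tgfa, -0.082 to 0.22 for Hbegf and -0.16 to 0.082 for Epgn. The interaction ran from -0.15 to 0.079 for Erbb2, -0.19 to 0.25 for Erbb3, -0.077 to 0.285 for Hbegf and -0.12 to 0.23 for Nrg2. Colon minus ileum ran from -0.043 to 0.16 for Egfr, -0.13 to 0.12 for Egf and -0.28 to 0.062 for Nrg1 under vancomycin, and from -0.13 to 0.057 for Tgfa and -0.0775 to 0.26 for Nrg2 without antibiotic.

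Same-numbered colon and ileum arrays deviated together with r of 0.107 to 0.236 in the 3 vancomycin pairs. A vancomycin pair with different numbers, colon replicate 13 and ileum replicate 14, was at 0.149. In the 3 same-numbered pairs without antibiotic r was 0.00188 to 0.0533. In neither state can these values settle whether a number pairs the samples. With the number as a fixed replicate block, 2 members passed without antibiotic and 2 under vancomycin, in both states Ereg and Hbegf. Btc lost its call without antibiotic (0.57, limma adjusted p = 0.0966). In that setting the Nrg2 interaction was -0.093, and the interaction count over all probe sets was 23. As a random block the number changed no member's call. No paired analysis was possible for vancomycin against no antibiotic because these groups share no replicate numbers. Egf and Tgfa lie among the dimmest rows, where the arrays' signal limits what can be seen, and had no value without those rows.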
